A study of Mus musculus with 23 samples.

Results

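Fam134a, Zfand2b, Abcb6, Atg9a, Ankzf1 and Glb1l are 6 broadly expressed genes that stand in a row on mouse chromosome 1 between Slc23a3 and Tuba4a. They were chosen by symbol, and all 6 are listed in each of the 5 deposited comparisons, among 79 genes listed in any comparison with wild type and 34682 genes listed for the CTCF deletion. Fam134a is the older symbol of Retreg2. In the annotation the 6 genes follow one another in the order given, with Cnppd1 before Fam134a and Stk16 between Glb1l and Tuba4a.

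RNA was sequenced from micro-dissected distal forelimbs of mouse embryos at E11.5. The groups are wild type (WT, 5 libraries), the engineered inversions Inv1 (3), Inv2 (4), Inv3 (3) and Inv4 (3), and Inv1DelCTCF (2), which by its name joins the first inversion to the loss of a CTCF site. The inversions were made with CRISPR/Cas9 and place an enhancer cluster of the Epha4 domain into gene-dense surroundings, and the question is which genes there change expression. The labels enter G4 ESC, an embryonic stem cell line, as the cell type of every sample, wild type included, and call each mutant only "mutant". Breakpoints, zygosity and the number of clones are not stated in them, and neither are pooling or litter of the embryos.

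The files give the authors' comparisons between groups and no value per library, so sequencing depth cannot be given and replicate error enters only as the standard error (SE) of each log2 change. The design text calls the libraries biological replicates without naming animals or litters, and the p-values rest on how far these libraries vary within a group, which may be technical. In whole limb tissue, fewer cells of a type and less RNA per cell cannot be told apart. Markers were measured only in the table of Inv1DelCTCF against Inv1 of the authors' deposited tables. There all 7 limb mesenchyme markers were detected, from 512.6 (Msx1) to 25893 (Prrx1) mean normalised counts, with the forelimb gene Tbx5 at 7273. The hindlimb genes Tbx4 and Pitx1 were at 642.3 and 19.2, and counts of different genes are not scaled to length here.

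The 6 genes serve general upkeep of the cell. Fam134a encodes a membrane protein of the endoplasmic reticulum from the family of reticulophagy receptors, which mark pieces of that organelle for autophagy. Atg9a encodes the membrane protein that supplies lipid to growing autophagosomes. Zfand2b and Ankzf1 encode partners of the p97 ATPase in protein quality control, the former at the endoplasmic reticulum and the proteasome and the latter in the clearance of stalled ribosomes. Abcb6 encodes an ATP-binding cassette transporter linked to porphyrin transport, and Glb1l encodes a protein related to lysosomal beta-galactosidase. Genes of this kind are active in nearly all cell types and usually have GC-rich promoters.

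The promoters show how closely the row is packed. RefSeq start windows (GRCm38.p6, 250 bases before to 50 after the start) matched all 6 genes. Atg9a and Ankzf1 start back to back, 150 bases apart, and their windows share 249 bases. Glb1l starts back to back with Stk16, a kinase gene outside the set, 74 bases away, and their windows share 173 bases. These shared stretches are shown because the partners of each pair can be compared in every mutant. They are read on the plus strand, 5′ to 3′, at chr1:75191961-75192209 and chr1:75210706-75210878, and capitals mark the CCAAT box on either strand.
Atg9a and Ankzf1: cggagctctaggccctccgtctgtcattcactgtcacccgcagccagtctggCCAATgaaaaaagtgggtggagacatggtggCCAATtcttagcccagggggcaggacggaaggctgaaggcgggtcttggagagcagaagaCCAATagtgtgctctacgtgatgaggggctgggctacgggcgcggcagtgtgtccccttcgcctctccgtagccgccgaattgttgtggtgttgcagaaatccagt
Glb1l and Stk16: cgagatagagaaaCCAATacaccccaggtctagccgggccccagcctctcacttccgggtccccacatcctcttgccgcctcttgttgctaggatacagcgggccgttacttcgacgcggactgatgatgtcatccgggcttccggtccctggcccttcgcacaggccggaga

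The windows of Fam134a, Abcb6 and Zfand2b are shown because Fam134a was called in Inv1 and Abcb6 in Inv3 and Inv4, while Zfand2b, which lies between them, was called in no comparison as deposited. Fam134a lies at chr1:75142536-75142835 on the plus strand, and capitals mark the E box CACGTG. Abcb6 lies at chr1:75180343-75180642 on the minus strand, with the CCAAT box, the GC box and the TATA box in capitals on either strand. Zfand2b, of which the first of 2 start windows is shown, lies at chr1:75168396-75168695 on the plus strand, with the cAMP response element and the GC box in capitals on either strand.
Fam134a: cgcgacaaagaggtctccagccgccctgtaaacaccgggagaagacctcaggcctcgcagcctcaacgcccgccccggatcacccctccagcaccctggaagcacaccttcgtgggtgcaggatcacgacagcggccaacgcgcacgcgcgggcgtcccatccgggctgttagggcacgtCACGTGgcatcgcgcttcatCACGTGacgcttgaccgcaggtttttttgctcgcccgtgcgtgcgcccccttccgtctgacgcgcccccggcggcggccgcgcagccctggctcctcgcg
Abcb6: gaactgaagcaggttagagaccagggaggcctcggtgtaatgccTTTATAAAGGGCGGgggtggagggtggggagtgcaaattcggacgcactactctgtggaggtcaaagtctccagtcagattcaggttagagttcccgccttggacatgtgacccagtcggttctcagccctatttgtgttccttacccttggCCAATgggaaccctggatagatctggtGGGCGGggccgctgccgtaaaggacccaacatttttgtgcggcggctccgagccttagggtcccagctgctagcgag
Zfand2b: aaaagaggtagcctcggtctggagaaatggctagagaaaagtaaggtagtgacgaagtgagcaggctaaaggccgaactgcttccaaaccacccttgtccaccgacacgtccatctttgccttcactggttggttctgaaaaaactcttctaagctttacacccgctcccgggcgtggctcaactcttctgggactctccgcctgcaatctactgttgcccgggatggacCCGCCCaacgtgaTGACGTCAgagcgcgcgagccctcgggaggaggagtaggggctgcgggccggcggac

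The windows differ in the letters they hold. The Fam134a window, at 69.3% GC, holds CACGTG at 2 places, and 7.15% of all 32851 windows of 300 bases hold that motif on either strand. The cAMP response element of Zfand2b (TGACGTCA) is in 1.79% of all windows. The CCAAT box (CCAAT), with 3 matches in the Ankzf1 window and 1 each in those of Abcb6 and Glb1l, is in 37.4% of all windows. The GC box (GGGCGG) is in 35.7% of them and has matches at Fam134a, where it is not capitalised, as well as at Abcb6 and Zfand2b. The TATA box (TATAAA), found in the Abcb6 window as 1 stretch read on both strands, is in 13.6%. All were searched on both strands, the E box and the cAMP response element read the same on both, and in Abcb6 the TATA box stretch runs straight into a GC box. They were chosen after the values were known, and a match is a description of letters, not a binding site.

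Levels in each group were rebuilt from the mean normalised count over the 18 libraries of the joint fit, the group sizes and the log2 changes. Fam134a stood at 1719 normalised counts in WT, 2128 in Inv1, 1766 in Inv2, 1572 in Inv3 and 1520 in Inv4. Abcb6 stood at 1455 in WT, 1593 in Inv1, 1355 in Inv2, 1234 in Inv3 and 1184 in Inv4. Both genes were thus highest in Inv1 and lowest in Inv4. Ankzf1 stood at 927.2 in WT, 1008 in Inv1, 883.2 in Inv2, 942.7 in Inv3 and 857.1 in Inv4, the narrowest range of the 6 genes, with its highest level 1.18 times its lowest.

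Glb1l, Zfand2b and Atg9a were lowest in WT. Glb1l stood at 608.8 normalised counts in WT, 770.8 in Inv1, 659.3 in Inv2, 759.8 in Inv3 and 647.0 in Inv4. Zfand2b stood at 489.8 in WT, 607.4 in Inv1, 512.8 in Inv2, 538.2 in Inv3 and 497.0 in Inv4. For Atg9a the levels were 133.3 in WT, 170.2 in Inv1, 147.5 in Inv2, 156.0 in Inv3 and 139.0 in Inv4. All 6 genes had their highest rebuilt level in Inv1 as deposited, although with each table centred on its median Glb1l was higher in Inv3 (log2 change 0.32) than in Inv1 (0.25). The highest deposited level was between 1.18 (Ankzf1) and 1.40 (Fam134a) times the lowest.

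Between genes, levels can be set side by side only per length. Per kilobase of the longest coding transcript, the rebuilt WT level was 671.0 for Fam134a, 490.7 for Abcb6, 372.2 for Zfand2b, 338.5 for Ankzf1, 260.3 for Glb1l and only 31.6 for Atg9a. Without values per library, no spread can be set against the steps in that order. Exons of the annotated transcript Gm29253 overlap those of Abcb6 and of Atg9a on the same strand. Likewise, Gm27943 shares 116 exon bases with Glb1l on the same strand. Exons of Atg9a and Ankzf1, and of Ankzf1 and Glb1l, overlap on opposite strands. Whether counting used strand is not given in the sources used here, so reads there cannot be assigned with certainty.

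**Figure D1:**
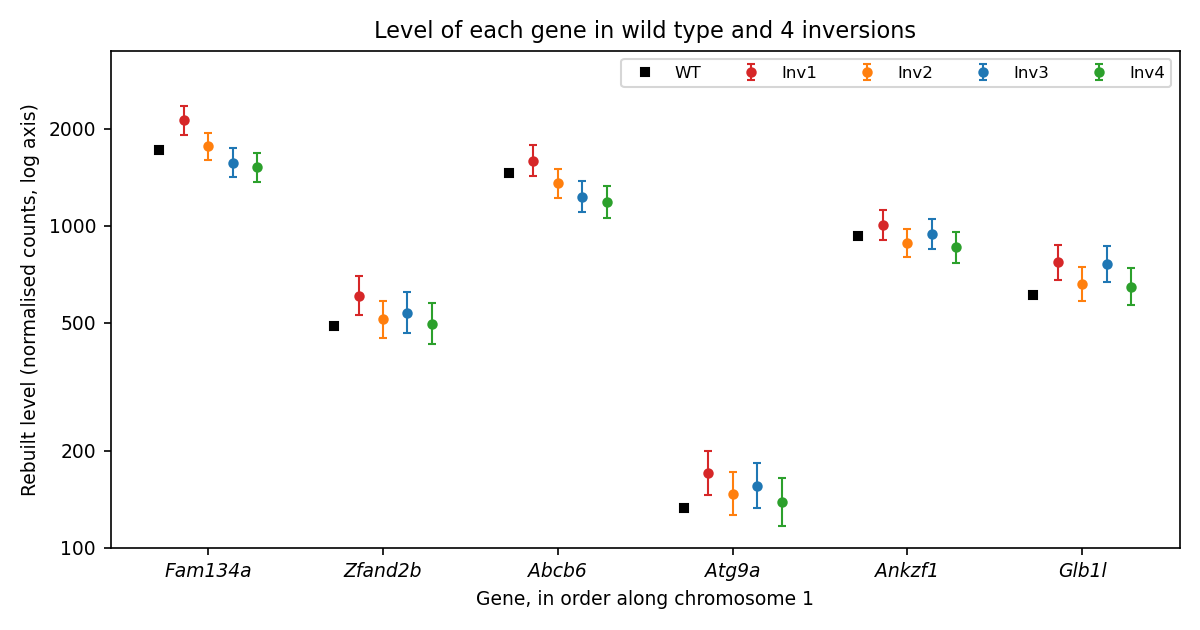
Rebuilt level of each gene (normalised counts, log axis) in WT (squares) and 4 inversions (circles), genes in chromosome order; bars are 95% intervals from the SE of the log2 change to WT. Inv1 is the highest point for all 6 genes as deposited (for Glb1l Inv3 is highest with each table centred on its median), and Fam134a and Abcb6 fall below the WT square in Inv3 and Inv4.

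In Inv1, Fam134a rose and the other 5 genes had positive log2 changes that did not pass the test. Fam134a was 1.24-fold higher than in WT (95% interval 1.12 to 1.37, log2 change 0.31, adjusted p = 0.0299, SE 0.075) in the authors' deposited table (DESeq2 Wald test, adjusted p under 0.05 for a call, here as below). The other autophagy gene, Atg9a, had the largest value of the 6, a log2 difference of 0.35 (adjusted p = 0.288, SE 0.116) in the authors' deposited table. In the authors' deposited table Glb1l had 0.34 (unadjusted p = 0.000269, adjusted p = 0.0911, SE 0.093) and Zfand2b 0.31 (adjusted p = 0.322, SE 0.104) on the same log2 scale. Ankzf1 at 0.12 (adjusted p = 0.872, SE 0.080) and Abcb6 at 0.13 (adjusted p = 0.856, SE 0.081) had intervals that include 0 in the authors' deposited table.

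So 1 of the 6 genes was called in Inv1, where 8.97% of the 78 listed genes were called in either direction, 7.69% higher and 1.28% lower. The listed genes are those of the locus, and among all genes the authors tested the called share lay between 0.133% and 0.295%, limits set by p and adjusted p in the authors' deposited table. At an unadjusted p under 0.05 the counts were 4 of 6, against 21.8% of the listed genes. The median log2 change of the 6 was 0.31, beside 0.09 over all 78, and all 6 were positive, beside 60 of the 78. The log2 changes of the listed genes had a Spearman correlation of 0.467 with transcript GC content over the 78 genes, which share libraries, and the 6 transcripts hold 50.1% (Glb1l) to 59.5% (Zfand2b) GC against a median of 52.6%. The number called moved with the set over which p was adjusted. It was 4 (Fam134a, Zfand2b, Atg9a and Glb1l) when deposited p-values were adjusted over the 78 rows and not over the genome. With a straight GC trend subtracted and the same adjustment over the 78 rows, only Fam134a (0.25) and Glb1l (0.38) of these 4 were called.

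The changes in Inv1 were not graded along the row. Tuba4a, the alpha-tubulin gene at the far end, was 1.84 higher on that scale (SE 0.10, the authors' deposited table). Stk16, between Glb1l and Tuba4a, was at only 0.06 (adjusted p = 0.957, SE 0.067, the authors' deposited table), with the caution that its exons overlap those of Tuba4a on the opposite strand. From Tuba4a outward the log2 changes then ran 0.34 for Glb1l, 0.12 for Ankzf1, 0.35 for Atg9a, 0.13 for Abcb6, 0.31 for Zfand2b and 0.31 for Fam134a. High and low values alternate, and the Spearman correlation of the 6 changes with place toward Tuba4a was 0.143 in Inv1, 0.257 in Inv2 and 0.6 in both Inv3 and Inv4 (6 genes of the same libraries, given as a description). On the other side, Slc23a3, a membrane transporter gene with a mean count of 9.40, had a log2 change of 0.70 (adjusted p = 0.483, SE 0.268) and Nhej1, a DNA repair gene, one of 0.25 (adjusted p = 0.725, SE 0.124) in the authors' deposited table. The genes had been grouped as graded with distance from the Inv1 breakpoint, whose position the labels do not give, and no such grading was seen in the Inv1 values.

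**Figure D2:**
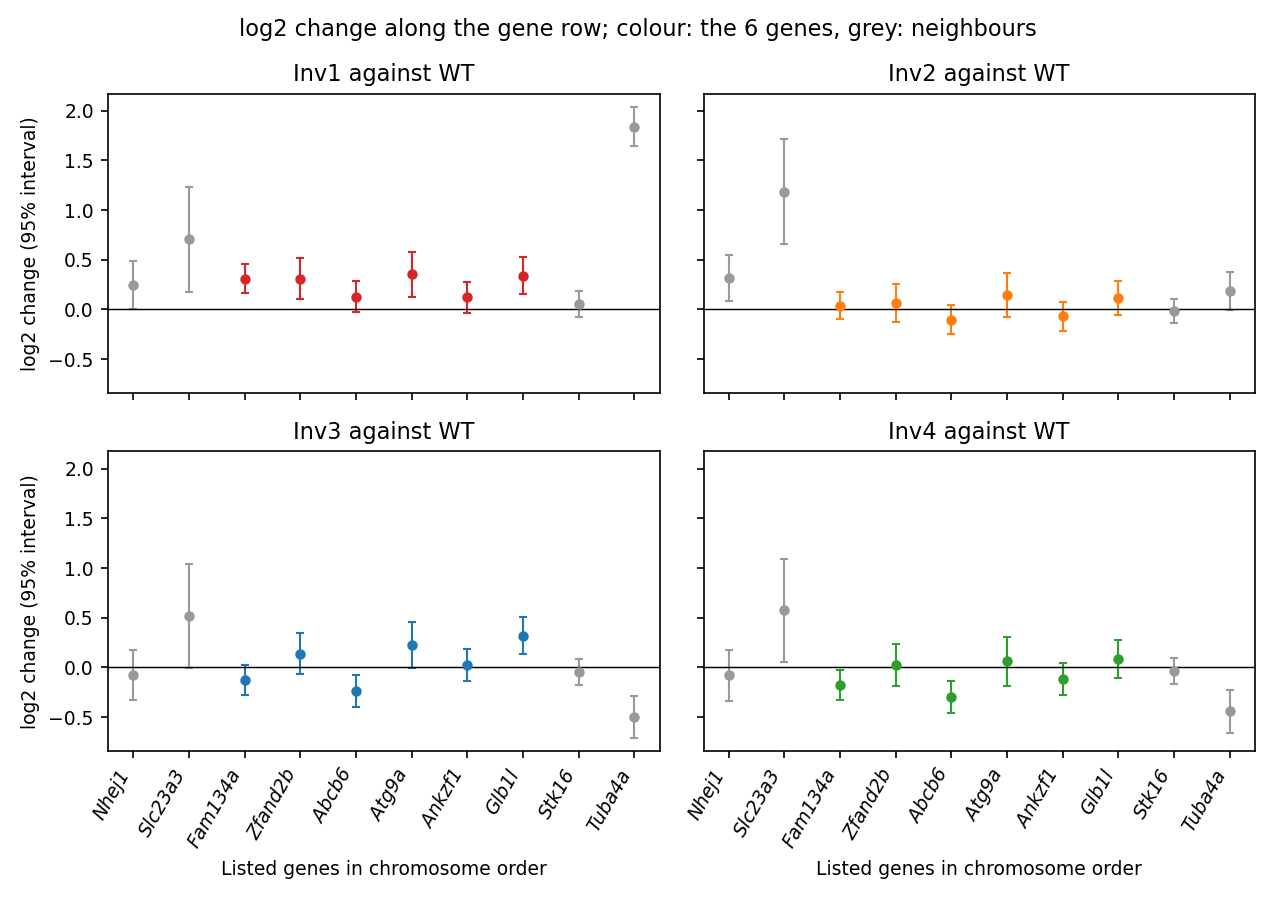
log2 change against WT with 95% interval (vertical axis) of the listed genes from Nhej1 to Tuba4a in chromosome order (horizontal axis, places and not distances), 1 panel per inversion, the 6 genes in colour and neighbours in grey. In Inv1 the 6 genes lie between 0.12 and 0.35 with no slope toward Tuba4a at 1.84, and Stk16 next to it lies at 0.06.

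In Inv2, none of the 6 genes was called. Per the authors' deposited table, the changes on the log2 scale were 0.15 for Atg9a (SE 0.113), 0.11 for Glb1l (SE 0.088), 0.07 for Zfand2b (SE 0.099), 0.04 for Fam134a (SE 0.070), -0.07 for Ankzf1 (SE 0.075) and -0.10 for Abcb6 (SE 0.076). The adjusted p-values of the authors' Wald test in DESeq2 lay between 0.553 (Abcb6) and 0.851 (Fam134a), and 0 of the 6 had an unadjusted p under 0.05. Of all 74 genes listed for Inv2, 4.05% were called, 2.7% higher and 1.35% lower, and 21.6% had an unadjusted p under 0.05. The count of 0 among 6 is therefore near the background of calls, and among all genes tested the same limits were 0.313% and 5.22% in the authors' deposited table. The 95% intervals reach from -0.25 (Abcb6) to 0.37 (Atg9a), so changes of that size are not shown to be absent. Beyond the end of the row at Fam134a, Slc23a3, at a mean count of only 9.40, rose by 1.18 (adjusted p = 0.00344, SE 0.269, log2 scale). Ihh, the gene of the Indian hedgehog signal, rose by 1.37 (adjusted p = 0.000185, SE 0.266), both per the authors' deposited table.

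In Inv3, Glb1l rose and Abcb6 fell. Glb1l was 1.25-fold higher than in WT (95% interval 1.10 to 1.42, log2 change 0.32, unadjusted p = 0.000664, adjusted p = 0.00454, SE 0.094) in the authors' deposited table. Abcb6, the transporter gene, was at 0.848 of the WT level (0.759 to 0.948, log2 change -0.24, adjusted p = 0.0171, SE 0.082) in the authors' deposited table. The remaining 4 had log2 changes of 0.23 (Atg9a, SE 0.118), 0.14 (Zfand2b, SE 0.105), 0.02 (Ankzf1, SE 0.080) and -0.13 (Fam134a, SE 0.076) in the authors' deposited table, with none called. The intervals of Glb1l (0.14 to 0.50) and Abcb6 (-0.40 to -0.08) do not overlap, which follows from their calls in opposite directions. Atg9a and Ankzf1 lie between these genes on the chromosome. Whether genes this close differ more or less often than other listed genes was not tested.

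That is 1 gene higher and 1 lower among 6 in Inv3, where 16.5% of the 79 listed genes were called higher, 16.5% lower and 32.9% in all. The same 2 were those with an unadjusted p under 0.05, beside 39.2% of the listed genes. The share among the 6 is thus near the background, and many genes beyond the row were called as well: the same limits from the authors' deposited table place the called share of all genes they tested between 27.6% and 31.1%. Tuba4a, which rose in Inv1, stood at -0.50 on the log2 scale (adjusted p = 8.84e-05) per the authors' deposited table, beyond Stk16 from the rising Glb1l. With the straight GC trend subtracted and p adjusted over the 79 rows, Fam134a was called lower as well (-0.19, adjusted p = 0.0393, within a range of 0.0393 to 0.209 over all settings). With that adjustment alone it was not called (adjusted p = 0.184, the authors' Wald test).

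In Inv4, Abcb6 fell again and no gene of the row rose. Abcb6 was at 0.813 of the WT level (95% interval 0.726 to 0.911, log2 change -0.30, adjusted p = 0.00488, SE 0.083) in the authors' deposited table. Fam134a was at -0.18 (unadjusted p = 0.0219, adjusted p = 0.0801, SE 0.077, the authors' deposited table) and was not called. Ankzf1 had a log2 change of -0.11 (SE 0.082), Glb1l one of 0.09 (SE 0.097), Atg9a one of 0.06 (SE 0.125) and Zfand2b one of 0.02 (SE 0.108, all from the authors' deposited table). At an unadjusted p under 0.05 were 2 of the 6, beside 34.7% of the listed genes. The single fall among 6 stands beside 6.94% of the 72 listed genes called lower, 13.9% called higher and 20.8% called in all. Among all genes tested, between 19.8% and 23.4% were called by the same reasoning from the authors' deposited table. Glb1l, called in Inv3, was not called here, and that difference between Inv4 and Inv3 was -0.23 (adjusted p = 0.696, SE 0.135), which did not pass.

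**Figure D3:**
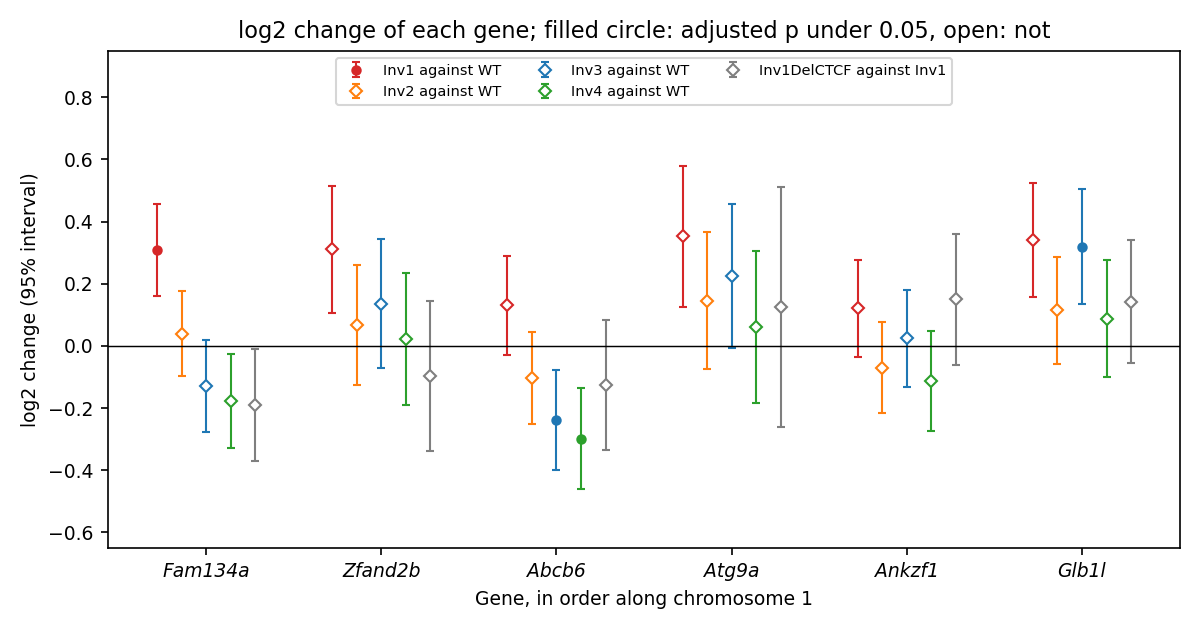
log2 change with 95% interval (vertical axis) of each gene in chromosome order, in Inv1 to Inv4 against WT and in Inv1DelCTCF against Inv1; filled circles passed an adjusted p of 0.05 and open diamonds did not. Of 30 values, 4 passed: Fam134a in Inv1, Glb1l and Abcb6 in Inv3, and Abcb6 in Inv4.

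Set against each other, the inversions differed for Fam134a and Abcb6. Each test divided the difference of 2 deposited log2 changes by an SE combined from both (root of the sum of squares), and the normal p-values were adjusted after Benjamini-Hochberg within a pair of inversions. The comparisons share the WT libraries, which makes the summed SE too large. Fam134a was lower than in Inv1 by a log2 difference of -0.44 in Inv3 (adjusted p = 0.000419, SE 0.107, DESeq2 values) and of -0.49 in Inv4 (adjusted p = 6.79e-05, SE 0.108). For Abcb6 the differences from Inv1 were -0.37 in Inv3 (adjusted p = 0.00972, SE 0.115) and -0.43 in Inv4 (adjusted p = 0.00183, SE 0.116). These were the 4 differences that passed among 36 tested for the 6 genes over 6 pairs of inversions, and 8 had an unadjusted p under 0.05.

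Fam134a thus stood on opposite sides of WT, at 0.31 in Inv1 and at -0.13 and -0.18 in Inv3 and Inv4, with a called change from WT in Inv1 alone among these 3. Abcb6 had its called changes in Inv3 and Inv4 and stood at 0.13 in Inv1. The difference of Abcb6 between Inv3 and Inv1 did not pass when each table was centred on its median (-0.28, adjusted p = 0.0649, against 0.000389 to 0.0649 over all settings). The calls were 2 of 6 genes in each case, where 23.1% of the 78 genes differed between Inv1 and Inv3 and 13.9% of the 72 between Inv1 and Inv4.

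For the other 4 genes no difference between 2 inversions passed this test. For Glb1l the difference of Inv3 from Inv1 was -0.02 (95% interval -0.28 to 0.24), and for Atg9a it was -0.13 (-0.45 to 0.20). For Zfand2b the difference of Inv4 from Inv1 was -0.29 (-0.58 to 0.0053) and for Ankzf1 it was -0.23 (-0.46 to -0.0099, unadjusted p = 0.0407, adjusted p = 0.173). Fam134a in Inv2 stood at -0.27 from Inv1 (adjusted p = 0.0927, SE 0.103) and Abcb6 at -0.23 (adjusted p = 0.291, SE 0.111), where 8.11% of the 74 genes differed. With the variance of the shared WT mean taken out, the difference of Fam134a between Inv2 and Inv1 passed (adjusted p = 0.00750, against 0.00750 to 0.573 over all settings). That of Ankzf1 between Inv4 and Inv1 passed too (adjusted p = 0.0442, against 0.0442 to 0.413), while Abcb6 in Inv2 did not (adjusted p = 0.0541). Among Inv2, Inv3 and Inv4 no difference passed for the 6 genes, where 4.05% (Inv3 minus Inv2) and 4.17% (Inv4 minus Inv2 and Inv4 minus Inv3) of the listed genes differed. The widest of those was -0.23 for Glb1l in Inv4 minus Inv3 (95% interval -0.50 to 0.03), so such sizes are not shown to be absent. For Fam134a in Inv4 minus Inv2 the interval excluded 0 (-0.22, 95% interval -0.42 to -0.012). Its unadjusted p in the same test was 0.0381 and its adjusted p 0.548.

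**Figure D4:**
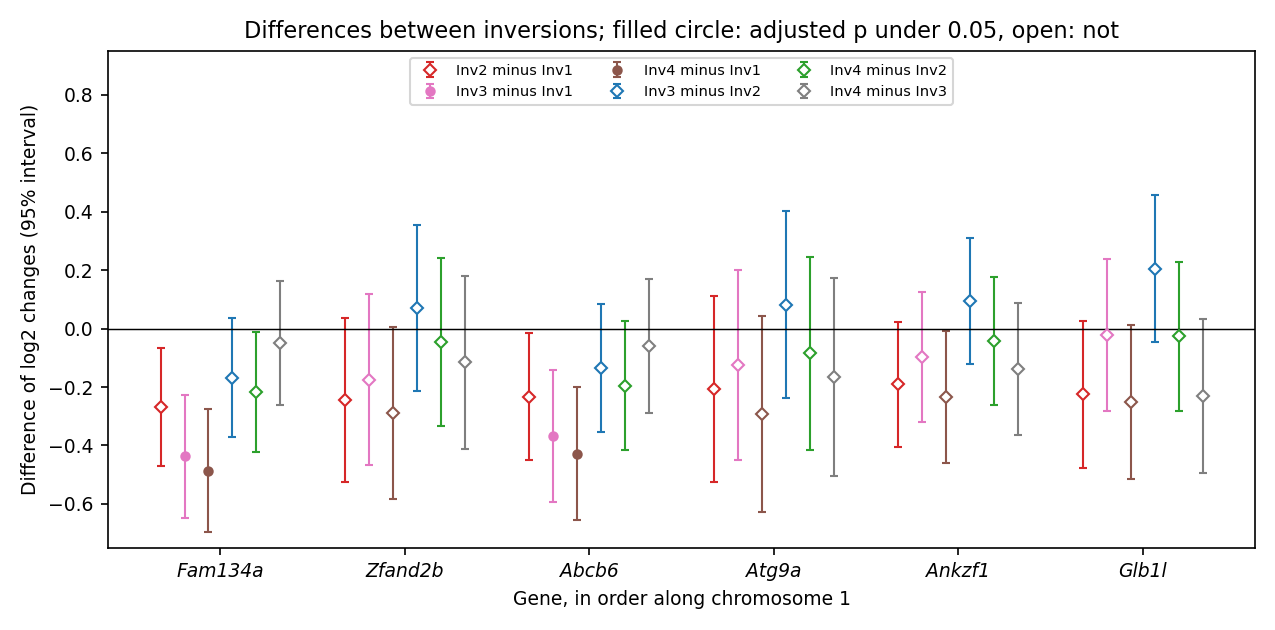
Difference of log2 changes between 2 inversions with 95% interval (vertical axis) for each gene in chromosome order, 6 pairs per gene; filled circles passed an adjusted p of 0.05. The 4 filled points are Fam134a and Abcb6 in Inv3 minus Inv1 and Inv4 minus Inv1, between -0.37 and -0.49.

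By pattern over the 4 inversions, the genes fell closer to some members of the row than to others, as a description. Likeness was measured as the root mean square difference of the 4 log2 changes, among 66 other listed genes with a mean count of at least 20. For Atg9a the nearest gene was Glb1l (0.051), then Zfand2b (0.066), against a median of 0.256 over the 66 genes. Glb1l had Atg9a nearest (0.051) and then Slc4a3, an anion exchanger gene (0.071). For Zfand2b they were Slc11a1, a metal ion transporter gene of low count (0.055), and Atg9a (0.066). By point values Atg9a thus stood close to Glb1l and Zfand2b, with Ankzf1 and Abcb6 lying among these genes on the chromosome. The 2 distances from Atg9a are smaller than the SE of its single log2 changes (0.113 in Inv2 to 0.125 in Inv4). The order of nearest genes was not tested.

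The remaining 3 genes had their nearest patterns outside the row. Abcb6 was nearest to Aamp (0.070) and to Mreg, a gene of melanosome transport (0.087). For Fam134a the nearest were Stk11ip (0.106) and Zfp142 (0.128), and for Ankzf1 they were Chpf, a chondroitin synthesis gene (0.020), and Pnkd (0.036). Within the row the widest distance was between Abcb6 and Glb1l (0.371). All these values share the WT libraries and so carry a common part.

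Of the back-to-back pairs, 1 held a called gene. Glb1l rose in Inv3 while Stk16, which starts 74 bases away, was at -0.05 (adjusted p = 0.649, SE 0.067, the authors' deposited table). Their intervals in Inv3, 0.14 to 0.50 and -0.18 to 0.08, do not overlap. In Inv1 they were 0.16 to 0.52 for Glb1l and -0.07 to 0.19 for Stk16 and do overlap. The log2 changes of Glb1l were alike, at 0.34 in Inv1 and 0.32 in Inv3. Its unadjusted p by the authors' Wald test was 0.000269 in Inv1 and 0.000664 in Inv3. The call in Inv3 and not in Inv1 thus came with the adjusted p-values, 0.00454 and 0.0911. Stk16 was close to 0 throughout, with log2 changes of 0.06, -0.02, -0.05 and -0.04 in Inv1 to Inv4 of the authors' deposited tables, at a mean count of 2078. Atg9a had a higher log2 change than Ankzf1 in all 4 inversions, by point values of 0.35 and 0.12 in Inv1 and 0.23 and 0.02 in Inv3, with overlapping intervals each time. No test was made between genes, since the correlation of their errors within a library is unknown.

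**Figure D5:**
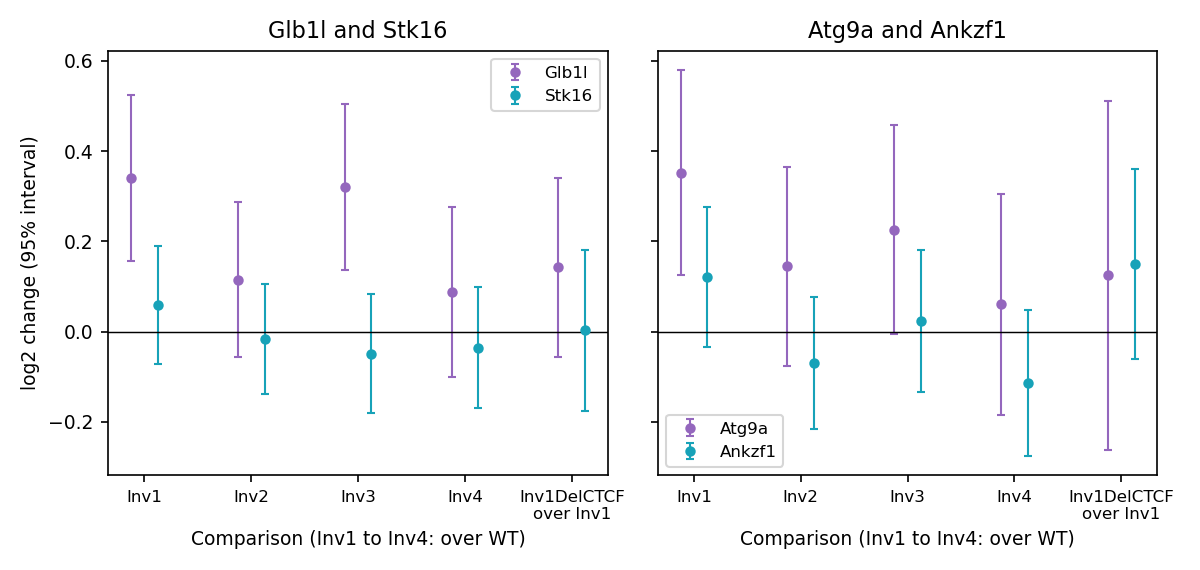
log2 change with 95% interval (vertical axis) in the 5 comparisons (horizontal axis) for the gene pairs that start back to back. In Inv3 the interval of Glb1l lies above that of Stk16, while those of Atg9a and Ankzf1 overlap in every comparison.

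Loss of the CTCF site on Inv1 left none of the 6 genes called. With negative meaning lower in Inv1DelCTCF than in Inv1, Fam134a was at -0.19 (unadjusted p = 0.0388, adjusted p = 0.165, SE 0.092), Abcb6 had a change of -0.13 (SE 0.107) and Zfand2b one of -0.098 (SE 0.123, all from the authors' deposited table). On the Tuba4a side, Atg9a had a log2 change of 0.12 (SE 0.198), Ankzf1 one of 0.15 (SE 0.107) and Glb1l one of 0.14 (SE 0.101, all from the authors' deposited table). By the authors' DESeq2 Wald test, 0 of 6 were called and 1 had an unadjusted p under 0.05, where 11.7% of the 11218 genes with an adjusted p were called, 3.81% higher and 7.89% lower, and 26.1% had an unadjusted p under 0.05. The number called over all genes was 1312 as deposited and 393 with a trend in GC content and transcript length subtracted, so this background depends on that setting. The median of the 6 was 0.013, beside -0.014 over all those genes.

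Rebuilt levels in that separate fit were 1912 in Inv1 and 1676 in Inv1DelCTCF for Fam134a, 1407 and 1290 for Abcb6, and 551.6 and 515.3 for Zfand2b. They were 162.2 and 176.8 for Atg9a, 943.2 and 1046 for Ankzf1, and 736.4 and 812.9 for Glb1l. The 3 genes nearer Slc23a3 were thus lower and the 3 nearer Tuba4a higher after the deletion, by point values with intervals that include 0 except for Fam134a. The Spearman correlation of the 6 changes with place toward Tuba4a was 0.886, and it was 0.714 with the GC and length trend subtracted, a description of 6 genes that share libraries and depth. After that subtraction the split into 3 and 3 was not kept: Fam134a was at -0.05 (adjusted p = 0.851, against 0.165 to 0.851 over all settings), Zfand2b turned to 0.076 and Abcb6 was at -0.016. Tuba4a itself was at -0.61 (adjusted p = 2.60e-06, SE 0.106) per the authors' deposited table, Stk16 at 0.0028 (SE 0.091), and 1810031K17Rik, the older symbol of Cnppd1, at -0.16 (SE 0.227).

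Other genes of the same pathways were largely not called after the CTCF deletion in the authors' deposited table, the only one that lists them, where 11.7% of all genes were called and 26.1% had an unadjusted p under 0.05. Of 35 core autophagy genes with an adjusted p, 0 were called (DESeq2, 4 with an unadjusted p under 0.05), with a median log2 change of -0.013. Among 15 receptors of selective autophagy 0 were called (DESeq2, 1 with an unadjusted p under 0.05), and their median was 0.065. Of 20 lysosomal glycosidase genes, again 0 were called (DESeq2, 2 with an unadjusted p under 0.05), with a median of 0.029. Among 19 genes of ABCB transport and heme metabolism 1 fell, namely the mitochondrial carrier gene Slc25a39 at -0.36 (adjusted p = 0.000507, SE 0.080, the authors' deposited table), and the list's median was -0.11.

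Of 24 p97 and quality control genes, 1 rose and 2 fell. The p97 cofactor gene Nploc4 had a log2 change of -0.22 (adjusted p = 0.0196, SE 0.069) and the ubiquitin ligase gene Ube4b one of -0.16 (adjusted p = 0.0445, SE 0.057) in the authors' deposited table. Derl2, a gene of retrotranslocation from the endoplasmic reticulum, was at 0.24 (adjusted p = 0.0314, SE 0.082, the authors' deposited table). The list's median was -0.022, and its share called was 12.5%, beside 11.7% of all genes as deposited.

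Markers of other tissues moved in the same comparison. Of 6 surface ectoderm markers 2 fell in the authors' deposited table, Krt5 at -0.30 and Cdh1 at -0.39 on the log2 scale, with a summed mean count of 10252 over the list. Among the others, 1 of 5 endothelial markers (Cdh5) and 1 of 4 erythroid markers (Hbb-bh1) fell, 2 of 7 limb mesenchyme markers fell (Hoxa13 and Lmx1b), and of the muscle, macrophage and nerve markers 0 of 8 were called (DESeq2, 2 with an unadjusted p under 0.05). Of all genes with an adjusted p, 7.89% were called lower and 11.7% in either direction. Hba-a1 is listed at 0. Their part in the values of the 6 genes was not tested, and sums per library are not given in the tables.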

How the data were processed

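Polyadenylated RNA of 23 libraries in 7 groups was sequenced, and the 3 libraries of Inv1 stem cells enter no comparison here. STAR, DESeq2 and build mm9 are named in the submitters' processing notes. Per the file headers, each deposited table gives a mean normalised count (a signal averaged over the libraries of a fit), a log2 fold change with its SE, a Wald score, and a p-value with its adjusted p-value. The tables against wild type share 1 fit. For Slc23a3, with mean counts of 9.40 there and 8.82 in the deletion fit, the SE was 0.269 (Inv2) and 0.891. Whether the fits treat log2 changes of low counts alike was not tested. The sign of the deletion table was found by rebuilding Inv1 levels in both fits (49 genes, mean 300 or more), with a median residual of 0.0124 against 0.107 or more under other signs, and was reversed here, so positive values mean a higher level after the deletion.

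Calls used the deposited adjusted p under 0.05. Differences between inversions, rebuilt levels, likeness and motif counts were computed here. The difference test (Inv3 minus Inv1) and the trend subtraction in the deletion table were tested on simulated data. There the difference test recovered 62.6% of log2 changes of 0.5 and 89.2% of changes of 1, with 0.295% of calls false. That recovery is an average over 78 listed genes, among them Slc23a3 with an SE of the difference of 0.378. The 6 genes have SEs from 0.107 (Fam134a) to 0.166 (Atg9a) there, so the average does not describe them. Errors were drawn from the deposited SEs, which were thus not checked. Differences of 0.5 or less can still be missed among the listed genes. The trend subtraction recovered 97.5% of changes of 1, with 8.88% of calls false, a share above the 0.05 used for calls. Smaller changes were not simulated there. The changes of the 6 genes after the deletion, the largest being -0.19 for Fam134a, are therefore not covered by that recovery. Alternatives covered thresholds, a minimum change, centring, GC trends, shared variance and the adjustment set. The named genes were the 6 genes, their neighbours, up to 4 called genes per pathway list and the 2 nearest patterns per gene,. The members and lists were chosen with earlier results of these data known. The GENCODE M21 annotation (GRCm38) gave names, order, transcript length and GC content, found for all 79 listed genes, and RefSeq the promoter windows. Tools were matplotlib 3.10.9, SciPy 1.17.1, numpy 2.4.6, pandas 2.3.3 and Python 3.11.15.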

Additional observations from a re-analysis of the deposited data

Results flagged for a closer look

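The effect of an inversion differed between inversions for Fam134a and Abcb6, by a test of the difference itself. Fam134a was lower relative to Inv1 by -0.44 in Inv3 and by -0.49 in Inv4 on the log2 scale, and Abcb6 by -0.37 in Inv3 and by -0.43 in Inv4. The difference of Abcb6 in Inv3 did not pass once each table was centred on its median (adjusted p = 0.0649, within 0.000389 to 0.0649 over all settings). Of the listed genes at large, 23.1% differed between Inv3 and Inv1 and 13.9% between Inv4 and Inv1. Among all genes tested, the share called against WT lay between 27.6% and 31.1% in Inv3 and between 19.8% and 23.4% in Inv4, against 0.133% to 0.295% in Inv1, by limits from the authors' deposited tables. The part of that wider change in these 4 differences was not tested.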

How the results depend on the processing

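For Inv1 the number of the 6 genes called, 1 as deposited, was 0 at an adjusted p under 0.01, 2 at 0.1, 2 with centring, 2 with the GC trend subtracted and 4 when adjusted over the rows of the table. For Inv3 it was 2, with 1 at an adjusted p under 0.01 or with a log2 change of at least 0.25, and 3 with the GC trend subtracted. For Inv4 it was 1, and 2 at 0.1. The pathway genes called after the CTCF deletion numbered 4, and 1 at 0.01. The counts at other thresholds follow from the thresholds. Against WT, centring and the GC trend were also adjusted over the rows of the table. That adjustment alone gave 4 in Inv1 and 2 in Inv3, and the centred and GC counts are to be read beside these. In Inv1 both were thus lower than with that adjustment alone. The cause of these shifts was not tested. The direction turned for Zfand2b in Inv4 (-0.00093) with the GC trend subtracted and in Inv1DelCTCF (0.076) with the GC and length trend subtracted, and for Glb1l in Inv3 minus Inv1 (0.065) with centring. None of those 3 was called. Over all genes of the deletion table, 1312 were called as deposited and 393 with the GC and length trend subtracted. Of 318 values of single genes under an alternative, 301 kept direction and call, 10 became called and 4 lost the call. Direction could turn only with centring or a trend subtracted, because the other alternatives leave each log2 value as it is. The 301 are therefore partly fixed in advance and do not measure robustness.

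Inv1 levels from the table of the deletion were 1912 for Fam134a, 551.6 for Zfand2b, 1407 for Abcb6 and 943.2 for Ankzf1, lower than in the joint fit by more than the SE. The median over 49 genes was lower by a log2 value of -0.14 as well, so the scale differs between the fits. No paired analysis was possible because the tables hold no value per library, and for the same reason no replicate could be left out. Depth per library is unknown, and Atg9a, with the lowest mean count of the 6, has the widest intervals.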
